A study of Homo sapiens with 30 samples.

Results

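The genes described here are 36 genes of the endoplasmic reticulum (ER) that fold secreted proteins, remove misfolded ones or sense folding stress. They were listed by name, with earlier results of these data known, and all 36 of the 36 listed genes were found among the 60675 genes of the count table and passed the filter on low counts, together with 17803 other genes. In SW1783 cells 10 of the 36 genes fell with the dose of the Poria Cocos extract, beside 0.376% of all genes tested, and 26 did not pass the test. Poria was picked for a fall of chaperone genes that was already known. HSPA5 fell 1.51-fold and HERPUD1 1.52-fold along the line from 20 to 500 µg/mL. With Atractylodis Rhizoma at the same doses no gene of the set fell and 1, DNAJB9, rose, beside 0.291% of all genes called higher.

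Proteins bound for the cell surface or for secretion enter the ER as unfolded chains. HSPA5 (also called BiP or GRP78) binds them as they enter, HSP90B1 (GRP94) acts later, calreticulin and calnexin hold sugar-bearing proteins, and protein disulfide isomerases form and reshuffle disulfide bonds. Chains that do not fold are passed back through the membrane and degraded, a route known as ER-associated degradation. When unfolded chains build up, the sensors ERN1 (IRE1), ATF6 and EIF2AK3 (PERK) start the unfolded protein response: IRE1 splices the XBP1 message, ATF6 is cut to a transcription factor, and both factors raise chaperone and degradation genes, while PERK slows translation and raises ATF4 and its targets. Astrocytoma cells secrete matrix proteins, which pass through this system.

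SW1783 is a human astrocytoma cell line. Cells were treated for 24 h with 0.1% DMSO as vehicle (3 libraries) or with an herbal extract at 20, 100 or 500 µg/mL. These values are those of the sample labels. The series description names another DMSO level and doses based on inhibition, and the labels were followed. The 70% ethanol extracts of Poria Cocos, a fungus, and of Atractylodis Rhizoma, a rhizome, had 1 library at each dose, as did the water extract of the formula Samul-tang. The labels number the Poria and Atractylodis libraries as replicate 1 and those of Samul-tang as replicate 3. For the water extracts of the formulas Palmul-tang and Sibjeondaebo-tang each dose was represented by 3 libraries, which gives 30 libraries in 16 groups. Poria and Atractylodis are both herbs of these last formulas. Whether the 3 libraries of a group are separate cultures is not stated in the labels, and the p-values cover only the spread seen between them, which may be technical. An extract with 1 library per dose was fitted with a line over its 3 doses, and its error borrows the spread of the replicated groups.

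The libraries held between 22.57 M and 37.82 M counts. Vehicle libraries carry a sample code set of their own, so a difference between treatment and vehicle and a difference between code sets cannot be told apart. Poria and Atractylodis share 1 code set, and Samul-tang carries another. Replicate 3 of Sibjeondaebo-tang at 500 µg/mL stood apart from its group, with a chi-square per gene of 8.15 and 7.42 against the other libraries, which differed from each other by 2.64. Of the defining astrocyte markers GFAP, S100B, AQP4 and ALDH1L1 were at or near 0 (GFAP between 0 and 0.143 CPM, counts scaled to a fixed library total), while VIM stood between 4390 and 5674 CPM and SOX9 between 59.9 and 84.0 CPM. Of 20 tested markers of astrocytes, neurons, immune cells, epithelium and fibroblasts edgeR called 0 in the Poria dose line, 2 were lower at an unadjusted p under 0.05, and DESeq2 called 1 lower, COL1A2 (log2 -0.20, edgeR adjusted p = 0.0571). The summed level of 5 fibroblast and mesenchymal markers, which include the secreted collagens COL1A1 and COL1A2, was 5826, 5692 and 5322 CPM at 20, 100 and 500 µg/mL of Poria, the last being the lowest of the 30 libraries (highest 6680 CPM). Most of that sum was COL1A1 and COL1A2, with medians of 3567 and 1855 CPM over the libraries. At the same Poria doses the astrocyte sum, mostly VIM, was 5032, 4944 and 5334 CPM. The neuron sum was 120, 126 and 122 CPM and the immune sum 150, 147 and 149 CPM. The epithelial sum was 184, 174 and 174 CPM. The part of these marker levels in the results below was not tested.

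Some promoters of the set carry a sequence element through which the response is known to act. The ER stress response element (ERSE, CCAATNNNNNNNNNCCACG) binds the factor NF-Y at its CCAAT end and ATF6 at its CCACG end, and the shorter ERSE-II (ATTGG and CCACG with 1 base between them) holds the same parts in another arrangement. Both were searched on both strands in RefSeq promoter windows (GRCh38.p14) from 250 bases before to 50 after the gene's start, in which 32 of the 36 genes had an entry. An ERSE was found in 6 of these 32 genes and in 22 of all 27305 windows (0.0806%), and an ERSE-II in 3 of the 32 genes and in 15 of all windows (0.0549%). Of the 36 genes HSPA5 had the smallest p in the Poria dose line. The 250 bases before its start lie at chr9:125241344-125241593 on the minus strand, with the ERSE in capitals:

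HSPA5: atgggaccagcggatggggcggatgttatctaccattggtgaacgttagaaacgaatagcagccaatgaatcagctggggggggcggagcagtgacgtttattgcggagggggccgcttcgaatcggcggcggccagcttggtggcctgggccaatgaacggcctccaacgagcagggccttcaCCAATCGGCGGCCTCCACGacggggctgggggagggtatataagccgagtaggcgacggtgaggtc

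The matches in all 9 genes read as follows along each gene's strand, 5′ to 3′, with 5 bases on each side, the fixed bases of the element in capitals and the distance from the first fixed base to the RefSeq start. They are shown so that the genes that fell can be set beside their elements. Matches that read CGTGG first are on the opposite strand.

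HSPA5 (ERSE, chr9:125241386-125241414, minus strand, 66 bases before the start): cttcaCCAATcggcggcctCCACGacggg
HSP90B1 (ERSE, chr12:103930211-103930239, plus strand, 194 bases before the start): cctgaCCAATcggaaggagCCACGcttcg
HSP90B1 (ERSE, chr12:103930316-103930344, plus strand, 89 bases before the start): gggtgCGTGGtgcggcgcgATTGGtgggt
CALR (ERSE, chr19:12938379-12938407, plus strand, 225 bases before the start): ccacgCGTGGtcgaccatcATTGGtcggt
CANX (ERSE, chr5:179698773-179698801, plus strand, 151 bases before the start): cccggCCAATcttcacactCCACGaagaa
CRELD2 (ERSE, chr22:49918549-49918577, plus strand, 80 bases before the start): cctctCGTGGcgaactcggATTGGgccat
XBP1 (ERSE, chr22:28800598-28800626, minus strand, 52 bases before the start): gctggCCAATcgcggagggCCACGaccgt
HERPUD1 (ERSE-II, chr16:56932020-56932040, plus strand, 117 bases before the start): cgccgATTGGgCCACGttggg
HYOU1 (ERSE-II, chr11:119057375-119057395, minus strand, 185 bases before the start): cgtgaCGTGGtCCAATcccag
HYOU1 (ERSE-II, chr11:119057269-119057289, minus strand, 79 bases before the start): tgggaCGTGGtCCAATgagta
SDF2L1 (ERSE-II, chr22:21642109-21642129, plus strand, 188 bases before the start): ggaagCGTGGaCCAATcaaaa

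HSP90B1 and HYOU1 carried 2 matches each. In HYOU1 the match farther from the start overlaps a core of the element bound by XBP1 (TGACGTG), which was found in no other gene of the set and in 2.0% of all windows. The single parts are common: CCACG was found in 21 of the 32 genes and in 37.9% of all windows, and CCAAT in 25 of the 32 and in 35.7%. A match is a description of the letters and not a measured binding site.

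In vehicle the set spanned a wide range of levels. Per kilobase of exon, HSPA5 stood highest at 856 ± 33.1 CPM per kb (SD, n = 3), followed by CALR at 661 ± 2.69, CANX at 364 ± 3.46 and HSP90B1 at 307 ± 5.48. P4HB, a disulfide isomerase, and PPIB, a proline isomerase, followed at 281 ± 1.53 and 281 ± 16.3 CPM per kb and did not differ beyond their spread. The sensor genes ERN1, at 2.00 ± 0.074 CPM per kb, and ATF6, at 9.94 ± 0.33, were among the lowest, and DERL3, a channel subunit of degradation, was last at 0.322 ± 0.028. Exons of DERL3 overlap 2923 bases of SMARCB1 on the other strand, and the counting strand is not stated, so its counts are uncertain. DNAJB9 overlaps PNPLA8 and THAP5 by 99 and 183 bases on the other strand, and SYVN1 overlaps FAU by 398 bases on its own strand.

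The dose line of Poria described how the genes changed from 20 to 500 µg/mL. The extract was picked for a fall already known. Its counts here and in the comparisons with other extracts describe that fall and are not independent support for it. Of the 36 genes 10 were called lower and 0 higher in edgeR's quasi-likelihood test at a Benjamini-Hochberg adjusted p of 0.05, beside 0.376% of all 17839 genes tested that were called lower. The log2 change was negative for 33 of the 36 genes with a median of -0.20, while the median over all genes was -0.001. All 3 doses enter each line, and in bulk RNA fewer cells with a transcript and less RNA per cell cannot be told apart.

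**Figure D1:**
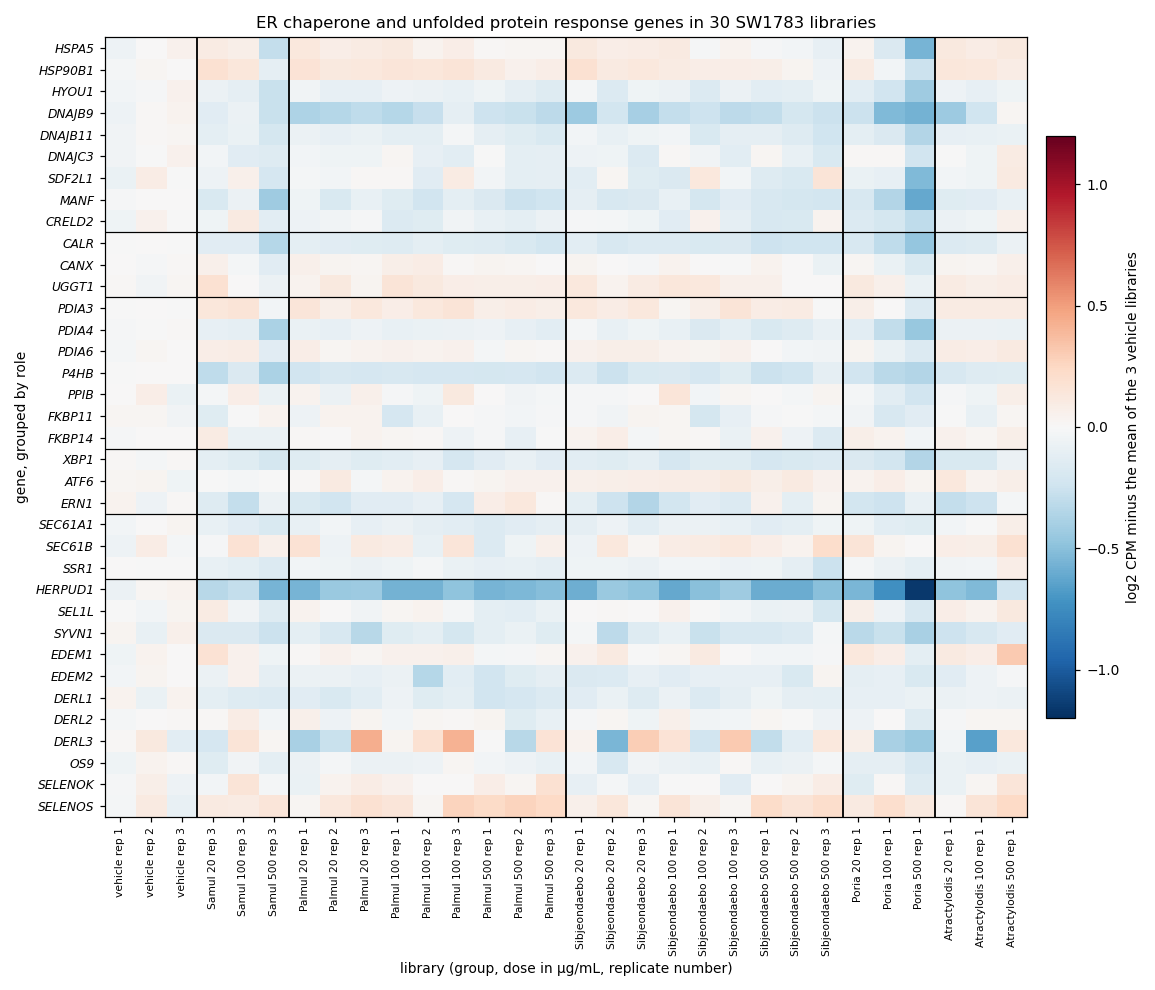
Level of each of the 36 genes (rows, grouped by role) in each of the 30 libraries (columns), as log2 CPM minus the mean of the 3 vehicle libraries; blue is lower and red is higher, and black lines separate extracts and roles. The library at 500 µg/mL of Poria is blue for 33 genes, and HERPUD1 is blue in all treated libraries.

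The ER members of the Hsp70 and Hsp90 families and their partners had 4 of 9 genes called lower. HSPA5 (ENSG00000044574, chromosome 9, 125234853 to 125241330 in GRCh38) stood at 3209, 3356 and 3466 CPM in vehicle, at 3439.5, 2964 and 2277 CPM at 20, 100 and 500 µg/mL of Poria, and at 3617, 3555 and 3632 CPM at these doses of Atractylodis. The Poria libraries at 100 and 500 µg/mL lay below every vehicle library, and all 3 Atractylodis libraries lay above every vehicle library. The log2 change of HSPA5 over the Poria line was -0.60 ± 0.066 (SE), with an edgeR adjusted p of 1.68e-07, the fifth smallest of all genes.

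HSP90B1 (chromosome 12, 103930107 to 103953645) stood at 1412, 1462 and 1445 CPM in vehicle, at 1544, 1408 and 1201 CPM with rising Poria dose, and at 1583, 1568 and 1530.4 CPM with Atractylodis. Its Poria level thus began above vehicle and ended below it, a log2 change of -0.36 ± 0.057 (edgeR adjusted p = 1.90e-04). HYOU1, a large Hsp70 relative that exchanges the nucleotide of HSPA5, stood at 497, 501 and 524 CPM in vehicle and at 465, 433 and 378 CPM with Poria (-0.30 ± 0.063, edgeR adjusted p = 0.00706), against 488, 472 and 488 CPM with Atractylodis. All 6 libraries of both extracts were below vehicle for HYOU1, and those of Poria parted from vehicle with dose.

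MANF, a secreted ER protein that binds HSPA5, was steady in vehicle at 199, 201 and 202 CPM and stood at 175, 157 and 131 CPM with rising Poria dose. Its log2 change was -0.42 ± 0.080 (edgeR adjusted p = 0.00335). With Atractylodis its level was 182, 183 and 189 CPM, also below vehicle at each dose but without the fall. DNAJB9 (ERdj4), a J-domain protein that brings HSPA5 to misfolded chains and to IRE1, stood at 41.7, 44.0 and 44.9 CPM in vehicle, at 36.4, 30.2 and 29.4 CPM with Poria, and at 32.1, 36.8 and 44.3 CPM with Atractylodis. Its lines ran in opposite directions: -0.31 ± 0.096 with Poria, not called (edgeR adjusted p = 0.142), and 0.47 ± 0.096 with Atractylodis, where it rose (edgeR adjusted p = 0.00905).

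The other members of this group, not called, had log2 changes over the Poria line of -0.44 for SDF2L1, -0.25 for DNAJC3, -0.24 for DNAJB11 and -0.14 for CRELD2. SDF2L1 is a partner of DNAJB11, DNAJC3 is a J-domain protein also known as an inhibitor of PERK, and CRELD2 is a disulfide-rich ER protein. SDF2L1 had the widest interval of the 4, from -0.80 to -0.09. Its level was 44.2 and 43.7 CPM at 20 and 100 µg/mL and 32.3 CPM at 500 µg/mL, so nearly all of its difference lay in the last step.

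Of the 3 lectin chaperone genes 2 fell. CALR stood at 1792, 1801 and 1787 CPM in vehicle, at 1574, 1452 and 1299 CPM with rising Poria dose (-0.28 ± 0.052, edgeR adjusted p = 0.00236), and at 1597, 1610.3 and 1712 CPM with Atractylodis. CANX, its membrane-bound relative, stood at 2271, 2243 and 2286 CPM in vehicle, at 2298, 2142 and 1996 CPM with Poria (-0.20 ± 0.052, edgeR adjusted p = 0.0415), and at 2315, 2302 and 2369 CPM with Atractylodis. CALR was below vehicle at every dose of both extracts, while CANX was below vehicle at 100 and 500 µg/mL of Poria only among these 6 libraries. UGGT1, which marks glycoproteins for another round of folding, was not called (-0.20, edgeR adjusted p = 0.0989).

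Of the 7 isomerase genes 2 fell. PDIA4 stood at 699.7, 705 and 715 CPM in vehicle, at 649, 577 and 517 CPM with Poria, and at 673, 673 and 669.6 CPM with Atractylodis, so that only the Poria libraries differ visibly from one another. The log2 change was -0.33 ± 0.058 (edgeR adjusted p = 0.00107). PDIA3, which works with calnexin and calreticulin, had 763, 765 and 763 CPM in vehicle, 803, 765 and 682 CPM with Poria (-0.23 ± 0.060, edgeR adjusted p = 0.0415), and 819, 819.7 and 817 CPM with Atractylodis. PDIA6, P4HB, PPIB, FKBP11 and FKBP14 were not called, with log2 changes between -0.21 for PPIB and -0.10 for FKBP11.

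Among the genes of degradation 2 of 11 fell. HERPUD1 (ENSG00000051108, chromosome 16, 56932048 to 56944863) anchors the ubiquitin ligase complex in the ER membrane and is a classic target of the response. It stood at 119.5, 127 and 129 CPM in vehicle, at 85.8, 75.2 and 56.3 CPM with rising Poria dose, and at 89.4, 86.6 and 106.7 CPM with Atractylodis. It was below vehicle in all 6 libraries, and the Poria library at 500 µg/mL was the lowest of the 30. Its log2 change over the Poria line was -0.60 ± 0.100 (edgeR adjusted p = 0.00118).

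SEL1L, the scaffold of that ligase, had 272, 267 and 279.8 CPM in vehicle, 287, 262 and 239 CPM with Poria (-0.27 ± 0.060, edgeR adjusted p = 0.0139), and 287, 281 and 295 CPM with Atractylodis. SYVN1, the ligase itself, was not called and had a log2 change of -0.06. EDEM1, which trims sugars of chains to be degraded, stood at 89.7, 96.0 and 93.3 CPM in vehicle, at 101.7, 98.2 and 85.8 CPM with Poria, and at 100.0, 98.4 and 115 CPM with Atractylodis. Its Poria line was just outside the threshold at -0.24 ± 0.066 (edgeR adjusted p = 0.0673). EDEM2, DERL1, DERL2, DERL3, OS9, SELENOK and SELENOS were not called, with log2 changes from -0.56 (DERL3, interval -1.44 to 0.31) to 0.01 (DERL1).

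The sensors and their factor did not pass the test. XBP1 stood at 132, 128 and 131 CPM in vehicle, at 115.8, 112 and 102.0 CPM with Poria (-0.18 ± 0.057, edgeR adjusted p = 0.151), and at 114.8, 115.0 and 124 CPM with Atractylodis. These are counts of the whole gene and do not separate the spliced from the unspliced message. ATF6 had a log2 change of -0.01 with an interval from -0.13 to 0.12, and ERN1 had 0.13 with an interval from -0.09 to 0.35. The translocation genes SEC61A1, SEC61B and SSR1, which let chains into the ER, were not called either and had log2 changes of -0.09, -0.15 and -0.09.

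**Figure D2:**
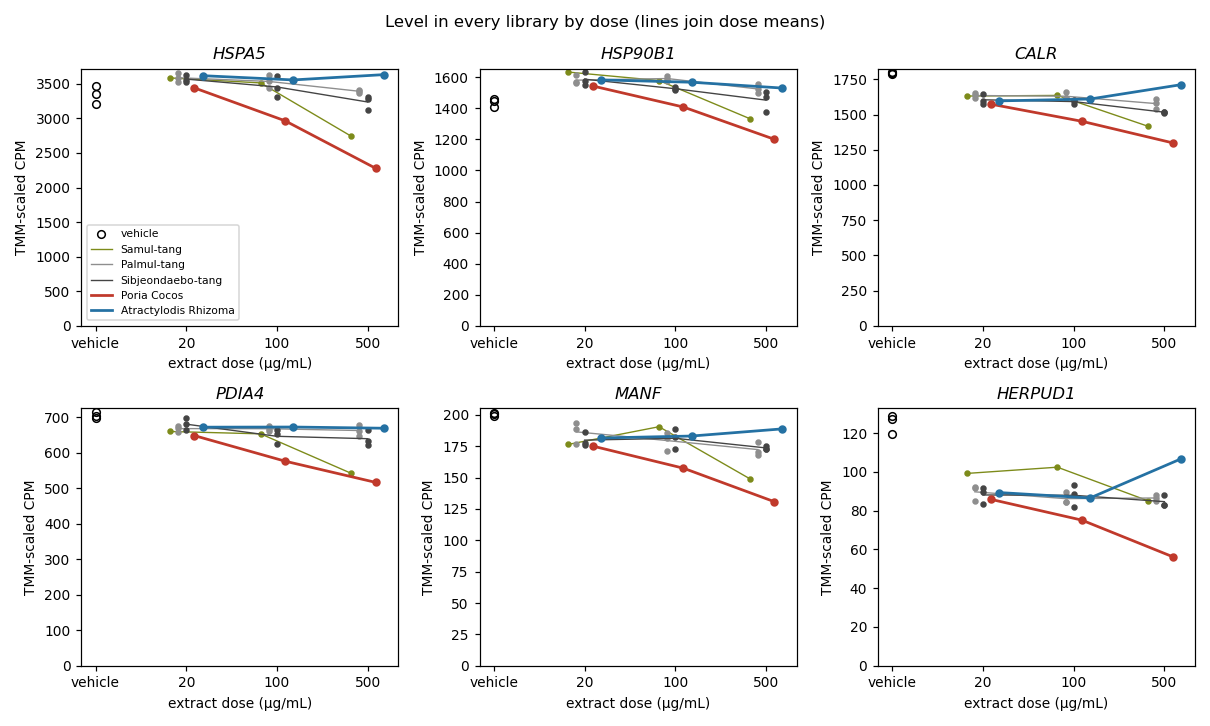
TMM-scaled CPM (vertical axis, from 0) of 6 genes by extract dose in µg/mL; each point is a library, open circles are the 3 vehicle libraries, and lines join the dose means of each extract. In each panel the red Poria point at 500 µg/mL is the lowest, with HSPA5 at 2277 CPM against 3632 CPM for Atractylodis in blue.

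Going by single libraries, 26 of the 36 genes were lower in CPM at each step of the Poria dose, beside 19.7% of all genes, and 0 were higher at each step. The median log2 step was -0.07 from 20 to 100 µg/mL and -0.11 from 100 to 500 µg/mL, and 26 genes had the larger downward step, or smaller upward one, from 100 to 500 µg/mL. DNAJB9 was an exception, with -0.27 in the first step and -0.04 in the second. The library at 500 µg/mL of Poria was the lowest of the 30 libraries for 23 of the 36 genes, beside 5.03% of all genes. It was below all 3 vehicle libraries for 33 genes, as were the libraries at 100 and 20 µg/mL for 26 and 21 genes, beside 35%, 34.7% and 34.6% of all genes.

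**Figure D3:**
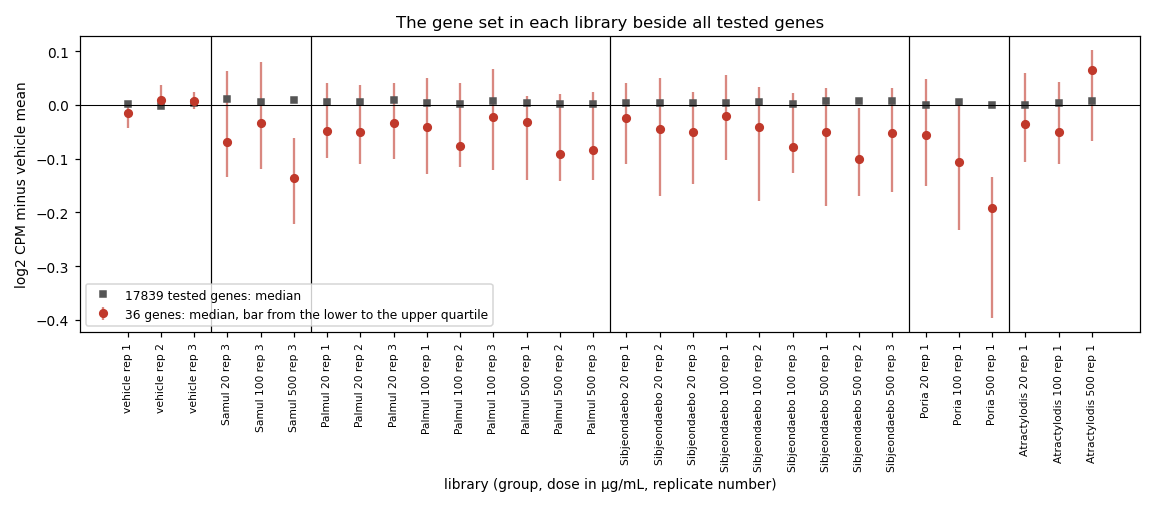
Median of the 36 genes (red circles; bars reach from the lower to the upper quartile of the genes) and of all 17839 tested genes (grey squares) in each library, as log2 CPM minus the vehicle mean. The Poria libraries stand at -0.06, -0.11 and -0.19 at 20, 100 and 500 µg/mL, and the Atractylodis library at 500 µg/mL stands at 0.07, the highest of the 30.

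The Poria calls rest on the libraries at both ends of the line. Without the library at 500 µg/mL 0 of the 36 genes was called and 1 gene of all tested was, and without that at 20 µg/mL 1 of the 36 genes, HSPA5, and 30 of all were. The signs did not change: for HSPA5 the log2 change was -0.44 without the first and -0.76 without the second, and for HERPUD1 it was -0.39 and -0.83.

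The dose line of Atractylodis over the same doses asked whether the set moved with another single herb. DNAJB9 was called higher and 0 of the 36 genes lower in edgeR, beside 0.291% of all genes called higher. At an unadjusted p under 0.05 the counts were 8 higher and 0 lower, and DESeq2 called 1 higher and 0 lower. The share of all genes at the unadjusted threshold was not counted, so the 8 genes have no background beside them. The log2 change was negative for 7 of the 36 genes and the median was 0.07. The intervals of HSPA5 (-0.13 to 0.14), HSP90B1 (-0.16 to 0.07), PDIA4 (-0.12 to 0.11) and HYOU1 (-0.12 to 0.13) do not reach the values these genes had with Poria. Those Poria values have errors of their own. In the direct test of the difference, given below, HSPA5 was called and HSP90B1, PDIA4 and HYOU1 were not. Single libraries were higher at each step for 14 of the 36 genes, beside 20.2% of all genes, and lower at each step for 1, HSP90B1. The call for DNAJB9 was lost without the library at 500 or that at 20 µg/mL, where its log2 change was 0.40 and 0.53.

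The difference between both lines was tested directly. It was called for 5 of the 36 genes, all lower with Poria, beside 0.14% of all genes called lower, and it was negative for 34 of the 36 with a median of -0.24. HERPUD1 differed by -0.86 ± 0.138 (edgeR adjusted p = 0.00167), DNAJB9 by -0.78 ± 0.136 (adjusted p = 0.00178), HSPA5 by -0.60 ± 0.093 (adjusted p = 3.25e-04), EDEM1 by -0.45 ± 0.093 (adjusted p = 0.0149) and CALR by -0.38 ± 0.073 (adjusted p = 0.008). For HSPA5 the Atractylodis line was near 0, whereas for DNAJB9, EDEM1 and HERPUD1 the Atractylodis line was positive, at 0.47, 0.21 and 0.26. The lines of HSP90B1, MANF and PDIA4, which fell with Poria, differed by -0.31, -0.48 and -0.32 and missed the threshold (edgeR adjusted p = 0.103, 0.0645 and 0.0979), so for them the difference between extracts was not called. The library at 500 µg/mL of either extract was needed, since without it 0 of the 36 genes was called, and 2 were without either library at 20 µg/mL.

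**Figure D4:**
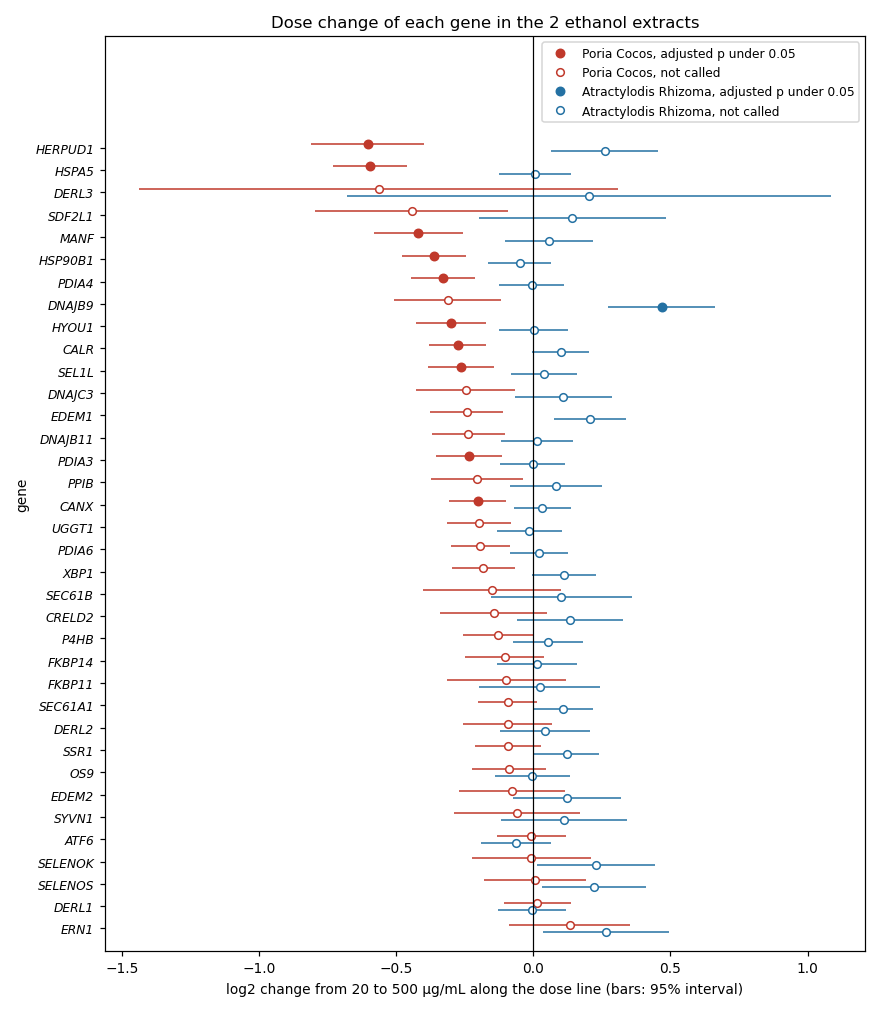
Log2 change from 20 to 500 µg/mL along the dose line (horizontal axis) of each of the 36 genes (rows, ordered by the Poria value) with Poria in red and Atractylodis in blue; bars are 95% intervals and filled circles have an adjusted p under 0.05. The red circles of HERPUD1 and HSPA5 stand at -0.60, and 33 red circles but 7 blue ones are left of 0.

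Averaged over the 3 doses, 15 of the 36 genes were lower with Poria than with Atractylodis, beside 0.69% of all genes called lower, and 0 were higher. Their log2 differences ran from -0.40 for HERPUD1 and -0.34 for HSPA5 to -0.12 for SEC61A1. By role these were 6 of the 9 genes of the Hsp70 and Hsp90 group, 2 of the 3 lectin chaperones, 4 of the 7 isomerases, 1 translocation gene, 2 of the 11 degradation genes and none of the 3 sensors and factors. With 1 library at 500 or 20 µg/mL of either extract left out, 1 gene of the set was called, and 8 were without the Poria library at 100 µg/mL.

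Samul-tang also had 1 library per dose, and 7 of the 36 genes fell over its line, beside 0.454% of all genes called lower. HSPA5 stood at 3584, 3512 and 2740.5 CPM at 20, 100 and 500 µg/mL, a log2 change of -0.39 ± 0.067 (edgeR adjusted p = 4.42e-04). HSP90B1 (-0.29), PDIA4 (-0.28), SEL1L (-0.25), UGGT1 (-0.25), PDIA6 (-0.22) and CALR (-0.20) fell as well. HERPUD1 was at 99.2, 102.5 and 85.1 CPM and was not called. Unlike with Poria, HSPA5 changed little from 20 to 100 µg/mL of Samul-tang. By single libraries 13 of the 36 genes, HSPA5 among them, were lower at each step, beside 18.3% of all genes. Without the library at 500 µg/mL 0 of the 36 genes was called, HSPA5 had a log2 change of -0.06, and CALR and PDIA6 turned to 0.003 and 0.02.

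In the 2 larger formulas, which had 3 libraries per dose, dose changes of the set were small. With Palmul-tang HSPA5 stood at 3587 ± 61.7, 3534 ± 91.0 and 3391 ± 19.5 CPM at 20, 100 and 500 µg/mL (SD, n = 3), and it was not called between 500 and 20 µg/mL. ERN1 rose from 19.2 ± 0.64 to 22.9 ± 0.89 CPM (log2 0.25, edgeR adjusted p = 0.00866) and SEL1L fell from 273 ± 7.77 to 253 ± 4.29 CPM (log2 -0.11, edgeR adjusted p = 0.0458), beside 5.39% of all genes called in either direction. ERN1 and SEL1L were thus about the same share of the set as the called genes were of all genes. The libraries of both doses did not overlap for either gene, but the share of all genes without such overlap was not counted. Of the 20 cell-type markers 5 were called lower and 0 higher between these doses (GLUL, TUBB3, KRT18, COL1A2 and PDGFRB), and their part in the result was not tested. The count of 2 genes became 0 without replicate 2 of either dose and 1 without replicate 1 of either dose or replicate 3 at 500 µg/mL.

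With Sibjeondaebo-tang HSPA5 fell from 3567 ± 47.7 CPM at 20 µg/mL through 3453 ± 146 at 100 to 3236 ± 96.0 at 500 µg/mL (log2 -0.14, edgeR adjusted p = 0.0143). HSP90B1 (-0.13) and SEL1L (-0.13) fell and ERN1 rose (0.23), beside 6.54% of all genes called in either direction. Of the 20 cell-type markers 8 were called lower and 0 higher between these doses, those of Palmul-tang and SLC1A3, SOX9 and KRT8, and their part in the result was not tested. These 4 calls of the set became 2 without replicate 1 or 2 at 20 µg/mL. Without replicate 3 at 500 µg/mL, which stood apart, 0 of these 4 genes was called, 1 other gene of the set was, and the log2 change of HSPA5 was -0.12 (edgeR adjusted p = 0.0726). By dose means 12 of the 36 genes were lower at each step with Palmul-tang and 13 with Sibjeondaebo-tang, beside 22.5% and 21.3% of all genes.

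Set against the mean of the other 4 lines, the Poria line was lower for 2 of the 36 genes, beside 0.0673% of all genes called lower. These were HERPUD1, by -0.59 ± 0.107 (edgeR adjusted p = 0.00916), and HSPA5, by -0.44 ± 0.071 (edgeR adjusted p = 6.14e-04). The difference was negative for 34 of the 36 genes, with a median of -0.15. It was called for 0 genes of the set without the Poria library at 500 µg/mL or that at 20 µg/mL, and for 7 without the Samul-tang library at 500 µg/mL.

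All comparisons with vehicle share the same 3 vehicle libraries and their code set. Over the 5 extracts 6 to 10 of the 20 cell-type markers were lower than vehicle and 1 to 4 higher, and their part in these results was not tested. The mean of the 3 Poria doses was lower than vehicle for 18 of the 36 genes, beside 15.4% of all genes called lower, and higher for 1, SELENOS. HERPUD1 was lower by -0.81 ± 0.056, DNAJB9 by -0.45 ± 0.056, MANF by -0.39 ± 0.046 and CALR by -0.32 ± 0.030 on the log2 scale (edgeR adjusted p at most 1.03e-07 for these 4). Of the set 12 genes were called without the library at 500 µg/mL and 11 without that at 20 µg/mL.

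The mean of the Atractylodis doses differed from vehicle for 13 of the 36 genes, beside 28.2% of all genes called in either direction. HSPA5 (0.11), HSP90B1 (0.12), PDIA3 (0.10), PDIA6 (0.09) and EDEM1 (0.17) were higher, and 8 were lower, among them HERPUD1 (-0.42), DNAJB9 (-0.22), SYVN1 (-0.20) and P4HB (-0.16). The count was 5 without the library at 500 µg/mL, 4 without that at 20 µg/mL and 7 without vehicle replicate 1.

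The mean of the Samul-tang doses was lower than vehicle for 14 of the 36 genes, beside 15.7% of all genes called lower (9 without the library at 500 or at 20 µg/mL). At 500 µg/mL the same count was 14 for Palmul-tang, beside 15.1% of all genes, and 13 for Sibjeondaebo-tang, beside 13.6%; each also had SELENOS higher. Without vehicle replicate 3 the calls of Sibjeondaebo-tang in both directions numbered 9 in place of 14, and 13 without replicate 3 at 500 µg/mL. HERPUD1 was lower in each, by -0.39 ± 0.055 with Samul-tang, -0.53 ± 0.055 with Palmul-tang and -0.57 ± 0.055 with Sibjeondaebo-tang. Its level in vehicle, 125 ± 5.12 CPM (SD, n = 3), was above all 18 libraries of the larger formulas, which stayed between 81.7 and 93.5 CPM. The lower level of HERPUD1 was thus already there at 20 µg/mL with each extract, and the further fall with dose was called with Poria.

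Genes next to the set in the same pathways were counted by lists. The PERK and ATF4 branch of the response, 20 genes, had 2 genes lower and 1 higher over the Poria line, with a median log2 change of -0.14. NUPR1, a small stress-induced chromatin protein, stood at 8.28, 8.63 and 8.31 CPM in vehicle, at 7.06, 6.41 and 3.44 CPM with rising Poria dose (-0.98 ± 0.200, edgeR adjusted p = 0.00496), and at 7.59, 7.30 and 10.8 CPM with Atractylodis. DDIT3 (CHOP), the factor tied to death under prolonged stress, stood at 29.4, 34.1 and 30.3 CPM in vehicle, at 24.2, 21.3 and 16.4 CPM with Poria (-0.56 ± 0.125, edgeR adjusted p = 0.0159), and at 25.8, 24.2 and 28.8 CPM with Atractylodis. SLC7A11, the cystine transporter, went the other way and rose with Poria (0.60 ± 0.120, edgeR adjusted p = 0.0161).

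With Atractylodis this branch had a median of 0.34, with 3 of 20 genes called higher: SLC7A11 (0.93), the stress-induced growth inhibitor DDIT4 (0.52) and SESN2 (0.50). The direct difference between the lines was called lower with Poria for NUPR1 (-1.51), the asparagine synthetase ASNS (-0.62) and ATF4 (-0.43), while that of DDIT3 (-0.72) missed the threshold (edgeR adjusted p = 0.0645). SLC7A11 rose with both extracts and its difference was not called (-0.33, edgeR adjusted p = 0.665). SLC7A11, DDIT4, SESN2, ASNS and ATF4 were singled out after their values were seen.

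**Figure D5:**
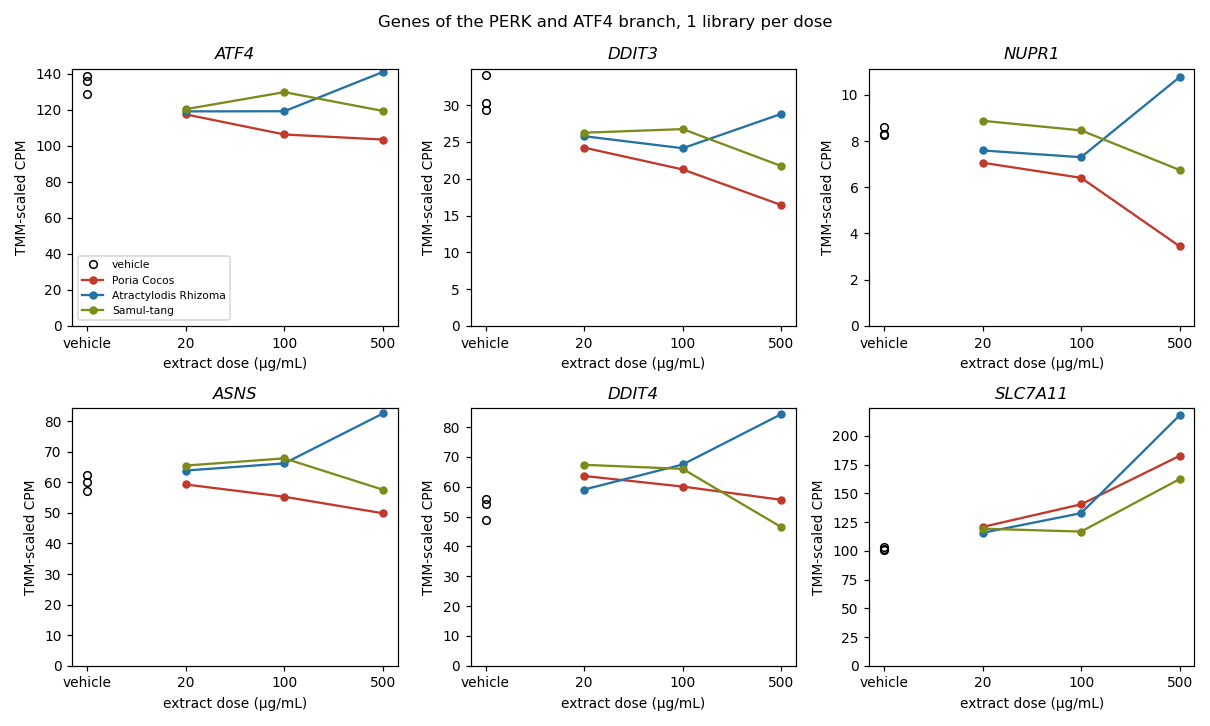
TMM-scaled CPM (vertical axis, from 0) of 6 genes of the PERK and ATF4 branch by dose in µg/mL, with 1 library per dose and extract joined by lines and the 3 vehicle libraries as open circles. DDIT3 and NUPR1 end at 16.4 and 3.44 CPM with Poria in red, while SLC7A11 ends above vehicle with each of the 3 extracts.

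Other lists had few calls in the Poria line. Of 25 other ER folding enzymes, 28 other translocation and glycosylation genes, 20 other degradation genes, 25 genes of transport from ER to Golgi and 11 mitochondrial chaperones edgeR called 0, and their medians were -0.11, -0.06, 0.02, 0.0006 and 0.02. At an unadjusted p under 0.05 the first list had 6 genes lower, the second had 7, the third had 1 lower and 1 higher, the fourth had 0 and the fifth had 1 higher, and DESeq2 called 1 of the folding enzymes lower and none of the others. In the first 2 of these lists 22 of 25 and 24 of 28 genes were negative. For the unadjusted counts in this paragraph the share of all genes was not counted. The counts of negative genes also stand without the share of all genes, whose median change is given with the Poria line above. Of the 24 cytosolic chaperones edgeR called 1, the constitutive Hsp70 gene HSPA8, which rose (0.24 ± 0.056, edgeR adjusted p = 0.021), and the list's median was 0.08. At an unadjusted p under 0.05 the list had 7 genes higher and 0 lower, and DESeq2 called 4 higher and 0 lower. HSPA8 was at 1477, 1526 and 1746 CPM with rising Poria dose and at 1328, 1302 and 1313 CPM in vehicle, so all 3 Poria libraries lay above vehicle. The stress-inducible Hsp70 genes HSPA1A (0.14) and HSPA1B (0.03) were not called. Of 15 other regulators of the response STC2, a secreted glycoprotein, was called and rose (0.27).

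Set beside the promoter matches shown above, the 9 genes with an ERSE or ERSE-II had a median log2 change over the Poria line of -0.30, ranging from -0.60 to -0.14, and 6 of the 9 fell. The 23 genes with a window but no match had a median of -0.13, ranging from -0.42 (MANF) to 0.13, and 3 fell. With Atractylodis the medians were 0.10 and 0.08. Levels differed as well: HSPA5, CALR, CANX and HSP90B1, which have a match, ranked 1 to 4 of the set in vehicle per kilobase. HERPUD1 and CRELD2, which also have one, ranked 21 and 29. The part of level in the counts of genes that fell was not tested. Of 16 other tested genes with a match 0 were called in the Poria line by edgeR or DESeq2 and 0 had an unadjusted p under 0.05, and their median was -0.05. Among these were the folding oxidase ERO1B (-0.12), FICD (-0.05), an enzyme that modifies HSPA5, and SERP1 (-0.03), which sits at the translocation channel.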

How the data were processed

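RNA of SW1783 cells was sequenced in 30 libraries. Per the submitters' processing notes, reads went through FastQC 0.11.9, Trim Galore 0.6.5, STAR 2.7.3a (hg38) and RSEM 1.3.3. The authors deposited RSEM expected counts for each gene, estimates that need not be whole. The annotation, counting strand and filters are not given in the sources used here. Of the table's 279 columns 30 match the samples here, and the 249 other columns were not used. Libraries of 1 group differed by a chi-square per gene of 2.14 to 8.15, and none was a copy of another.

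The estimates were rounded to whole numbers. Symbols and positions come from GENCODE 29 (57055 of 60675 IDs matched). edgeR 4.0.16 in R 4.3.3 kept 17839 genes (filterByExpr with groups, minimum count 10), scaled by TMM, and fitted all 30 libraries (robust quasi-likelihood). Vehicle and the larger formulas had a mean per group; Poria, Atractylodis and Samul-tang had a mean and a line over log dose coded -0.5, 0 and 0.5, which left 17 residual degrees of freedom. A line's log2 change is thus from 20 to 500 µg/mL, and log2 CPM used a prior count of 2. P-values were adjusted over all genes by the Benjamini-Hochberg method, calls were made at 0.05, and intervals are at 95%. The scripts were tested on simulated data. Along the Poria line 48% of 1.25-fold and 88% of 1.5-fold changes were recovered, and 8 of 176 calls were false. For Palmul-tang 500 against 20 µg/mL 92% and 96% were recovered, with 14 of 208 calls false. A gene not called in the Poria line may thus still have changed by a small amount.

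Alternatives were DESeq2 1.42.0 (its size factors and its Wald test), no filter, a mean per group, a replicate block, thinned counts, a removed GC and length trend, only the compared groups, and each library left out. The 36 genes, all lists and the Poria extract were chosen with earlier results of these data known. Values in every library are given for up to 12 genes called in the Poria line or in its difference from Atractylodis and for 6 fixed genes (HSPA5, HSP90B1, CALR, XBP1, HERPUD1, SEL1L); neighbouring lists name up to 2 called genes each by the Poria p, and any other gene or marker named was chosen after its values were seen. Promoter windows are from RefSeq (GRCh38.p14).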

Additional observations from a re-analysis of the deposited data

Results flagged for a closer look

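The change from 20 to 500 µg/mL differed between Poria and Atractylodis, by the test of the difference itself, for 5 genes. It was lower with Poria by -0.86 for HERPUD1, -0.78 for DNAJB9, -0.60 for HSPA5, -0.45 for EDEM1 and -0.38 for CALR on the log2 scale, with edgeR adjusted p of 0.00167, 0.00178, 3.25e-04, 0.0149 and 0.008. Each extract had 1 library per dose, and 0 of these differences was called by edgeR without either library at 500 µg/mL.

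The Poria change also differed from the mean of the other 4 extracts for 2 genes, HERPUD1 by -0.59 and HSPA5 by -0.44 (edgeR adjusted p = 0.00916 and 6.14e-04). By the chi-square per gene given above, replicate 3 of Sibjeondaebo-tang at 500 µg/mL stood apart from its group. No group had more than 3 libraries, so no other screen of single libraries was made.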

How the results depend on the processing

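Counts are of all genes and, after a slash, of the 36 genes. A fit on only the compared groups gave 354/18 for the Poria line (160/10 in the fit to all libraries), 237 genes for Atractylodis (86), 112/9 for their difference (39/5), 257/1 for Samul-tang (169/7), 4 of the 36 for Palmul-tang 500 against 20 µg/mL (2), 636/0 for Sibjeondaebo-tang (1167/4), 528 genes for the means of Poria against Atractylodis (257), 20 of the 36 for Atractylodis against vehicle (13) and 9 of the 36 for Sibjeondaebo-tang against vehicle (14). Removing the GC and length trend gave 295 genes for Poria, 145 for Atractylodis, 93/10 for their difference, 54/6 for Poria against the other 4 lines (26/2), 304 genes for Samul-tang, 7 of the 36 for Sibjeondaebo-tang and 456 genes for the means. Without the filter there were 136 genes for Atractylodis, 87 for the difference, 67/4 for Poria against the other lines and 1 of the 36 for Palmul-tang. DESeq2 gave 67/8 for the difference and 5 of the 36 for Poria against the other lines. With a mean per group there were 59 genes for the difference and 1 of the 36 for Palmul-tang, which had 1 also with DESeq2 size factors and with thinned counts. With the replicate block the difference had 65 genes and no other count moved by over 1.5 times.

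Same-numbered libraries had correlations of their deviations from -0.21 to 0.33 (median 0.05, 63 pairs), and the median between other numbers was -0.03. Of 21 libraries 16 correlated best with their own number. The main fit did not take the numbers as pairs, and the replicate block was the alternative that used them. The cause of these shifts was not tested. Leaving out 1 library at a time gave 1 to 156 genes and 0 to 10 of the 36 for Poria, 0 to 81 and 0 to 1 for Atractylodis, 0 to 45 and 0 to 5 for the difference, 0 to 35 and 0 to 7 for Poria against the other lines, 0 to 182 and 0 to 7 for Samul-tang, 660 to 741 and 0 to 2 for Palmul-tang and 805 to 1153 and 1 to 6 for Sibjeondaebo-tang. The ranges were 11 to 215 and 1 to 11 for the means of Poria against Atractylodis. Against vehicle they were 2714 to 4295 and 11 to 17 for Poria, 2359 to 4359 and 4 to 12 for Atractylodis, 2195 to 4717 and 9 to 14 for Samul-tang, 4096 to 4353 and 10 to 14 for Palmul-tang and 3566 to 5174 and 9 to 14 for Sibjeondaebo-tang. The log2 change over the Samul-tang line reversed without its library at 500 µg/mL for CALR and PDIA6, and over the left-out libraries it ran from -0.4136 to 0.0028 and from -0.4612 to 0.0181.

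The main limits are the single libraries per dose of Poria, Atractylodis and Samul-tang, whose calls borrow the spread of other groups, and the vehicle's own code set.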
